A study of Mus musculus with 6 samples.

Results

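The AMPA and kainate receptor subunits are 9 genes, Gria1 to Gria4 and Grik1 to Grik5, and they were compared between high binding cells (HBC) and low binding cells (LBC), 2 populations of mouse preadipocytes that differ in how much of the soluble hepatokine FNDC4 they bind. Each of the 9 had 1 transcript cluster of its own, out of the 19938 genes compared, and no cluster was shared between a subunit and another gene. A transcript cluster is the group of array probes that the array design reads together. The genes were taken by their symbols, and the family was selected on the measured HBC and LBC intensities, since Gria1 was already known to be among the largest falls in this comparison, so the values of the subunits are given as a description and carry no p-value.

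HBC and LBC came from immortalized stromal vascular cells of inguinal white fat of male 129SVE mice. Cells were stained with 100 nM FcsFNDC4, the extracellular part of FNDC4 fused to a human Fc, and those with very high or very low staining were kept over 20 rounds of sorting. Both groups therefore share the immortalization, the exposure to ligand during staining and the culture medium, and neither is an unsorted control. At passage 20, each population gave 3 technical replicates, and each of these 6 RNA samples went onto its own Affymetrix gene array. All replicates of a group come from 1 sorted population, so the SDs below measure the spread between arrays and not between independent sorts. The standard errors come from limma, which combines the spread of each gene with that common to all genes. They do not cover independent sorts either. For LBC replicates 2 and 3 the source name says HBC, whereas their titles, descriptions and phenotypes read LBC; the titles were followed, and values without both arrays are given where they matter.

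AMPA and kainate receptors are ion channels that open when glutamate binds. Each channel is a complex of 4 subunits, encoded by the Gria genes for AMPA receptors and the Grik genes for kainate receptors. They carry much of the fast excitatory transmission in brain and spinal cord, and auxiliary proteins bound to the subunits set how long the channels stay open and how many reach the surface. Preadipocytes are not excitable cells, so how far each signal stood above silent genes was looked at before any difference.

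Olfactory receptor genes, which are silent outside the olfactory system except for a few members, served as the reference for dim signal. Mean intensities of 1027 such genes (symbols starting Olfr) ran from 13.7 to 83.9 in HBC and from 13.8 to 86.1 in LBC between the 10th and 90th percentile. Of all 19938 genes, 13549 were above the 90th percentile in HBC and 13717 in LBC, so being above this range was common. A place above it does not by itself show that a gene is expressed. Gria3 and Grik2 were above this range in both groups, at the 99.3 percentile of olfactory receptor genes in HBC and the 99.9 percentile in LBC. Gria1 lay inside the range in HBC, at the 68.0 percentile, and above it in LBC, at the 99.1 percentile. Grik3 was slightly above the range in both groups, at the 91.1 percentile in HBC and the 91.3 percentile in LBC. Grik4 was at the 88.7 percentile in HBC and the 92.2 percentile in LBC, on either side of its edge. Gria2, Gria4, Grik1 and Grik5 lay inside the range in both groups, so for these 4 a signal from the gene could not be told apart from that of silent genes.

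**Figure D1:**
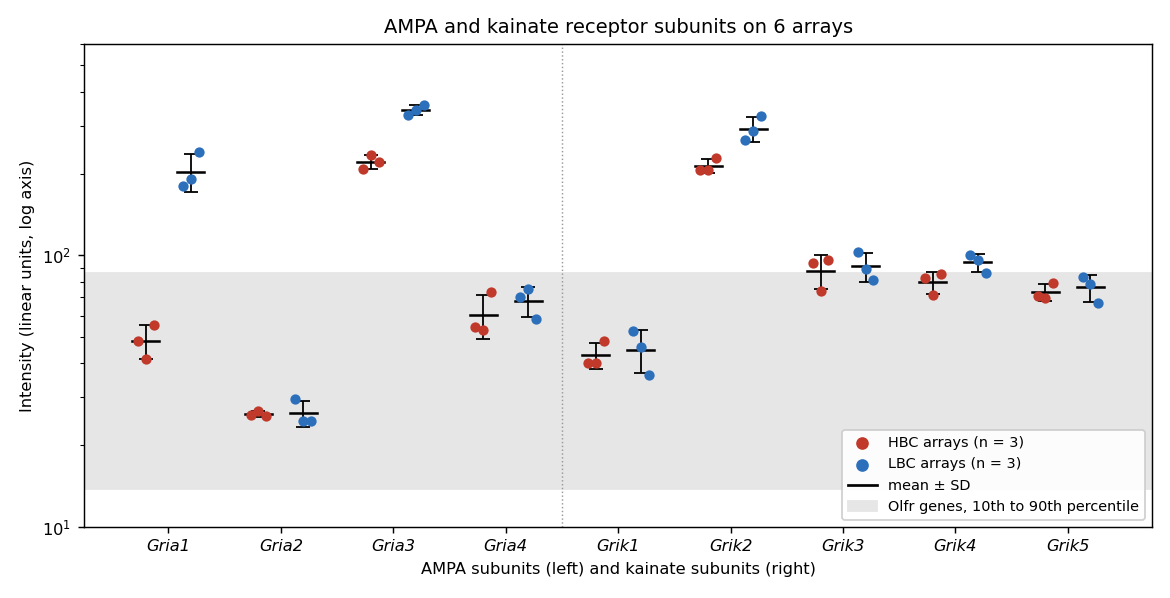
Linear intensity of the 9 subunit genes, 1 point per array on a log axis, with 3 HBC arrays in red left of 3 LBC arrays in blue, black lines for the mean and SD, and a grey band for olfactory receptor genes between the lower of the 10th and the higher of the 90th percentiles of both groups. Gria1, at 48.4 in HBC and 203 in LBC, leaves the band only in LBC, while Gria3 and Grik2 lie above it in both groups and lower in HBC.

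Gria1, which encodes the AMPA subunit GluA1, had the largest difference of the family. Its intensity was 48.4, 41.4 and 55.3 on the HBC arrays, against 179.6, 190.3 and 239.7 on the LBC arrays. The 3 HBC arrays were all far below the 3 LBC arrays, and LBC replicate 3 was the brightest. The mean was 48.4 ± 6.97 in HBC and 203 ± 32.0 in LBC (SD, n = 3 arrays each), a ratio of 0.238. On the scale of log2(intensity + 16), HBC minus LBC was -1.76 with a standard error of 0.099. Since the HBC signal was within the range of silent genes, the ratio may not give the full size of the difference. Without LBC replicates 2 and 3 the difference was -1.61, with the 1 remaining LBC array assumed to vary like HBC.

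Gria3, on the X chromosome, encodes the AMPA subunit GluA3, and it was above the range of silent genes in both groups. It read 208, 235 and 220.2 on the HBC arrays and 329, 343 and 358 on the LBC arrays, without overlap. The mean was 221 ± 13.5 in HBC and 343 ± 14.8 in LBC (SD, n = 3 each), a ratio of 0.643 and a log2 difference of -0.60 with a standard error of 0.085. A gene was called at an adjusted p under 0.05 (limma) together with a fold above 1.5, and Gria3 was just past this fold. It was no longer past it after quantile normalization (log2 difference of -0.56), cyclic loess normalization (-0.51) or median centring (-0.56). The same held without HBC replicate 1 (-0.56), without LBC replicate 3 (-0.57) and without LBC replicates 2 and 3 together (-0.54).

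Grik2 encodes the kainate subunit GluK2, one of the subunits that can form a channel without the others. Its intensity was 207, 207 and 229 on the HBC arrays, against 265, 287 and 326 on the LBC arrays. Again no HBC array reached the LBC arrays, and LBC replicate 3 was the brightest. The mean was 214 ± 12.8 in HBC and 293 ± 30.8 in LBC (SD, n = 3 each), a ratio of 0.731 and a log2 difference of -0.42 with a standard error of 0.090. This difference was smaller than the fold of 1.5, and it was -0.29 without LBC replicates 2 and 3.

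Grik4 encodes GluK4, a kainate subunit that needs a partner such as GluK2 to form a channel. It read 82.1, 71.1 and 85.4 in HBC and 100.1, 96.4 and 86.2 in LBC. The groups did not overlap, but HBC replicate 3 and LBC replicate 3 were nearly equal, and both sat at the edge of the range of silent genes. The log2 difference was -0.21 with a standard error of 0.089.

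The other 5 subunits overlapped between HBC and LBC. Gria2, whose GluA2 subunit makes AMPA channels nearly impermeable to calcium once its transcript has been edited, was dim on every array, at 25.8, 26.8 and 25.6 in HBC and 29.6, 24.5 and 24.5 in LBC. Gria4, the gene of GluA4, read 54.6, 53.2 and 73.3 in HBC and 70.1, 75.0 and 58.5 in LBC. Grik1, the gene of GluK1, read 40.2, 40.2 and 48.4 in HBC and 52.6, 46.1 and 36.2 in LBC. In each of these genes HBC and LBC arrays covered nearly the same values. Grik3, the gene of GluK3, read 93.6, 73.5 and 95.8 in HBC and 102.8, 89.2 and 80.9 in LBC. Grik5, whose GluK5 subunit also works only beside another kainate subunit, read 70.9, 69.4 and 78.8 in HBC and 83.5, 78.1 and 66.6 in LBC. The log2 differences of these 5 genes ran from -0.14 for Gria4 to -0.00 for Gria2, with standard errors between 0.085 and 0.099.

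Counted over the family, 2 of 9 subunits (Gria1 and Gria3) were called lower in HBC and none higher, where 1.13% of all genes tested were called lower and 2.54% higher. In 4 of 9 (Gria1, Gria3, Grik2 and Grik4) every HBC array was below every LBC array, which was so for 25.1% of all genes; in none was every HBC array above every LBC array, against 10.1% of all genes. At a fold above 2, Gria1 alone was called lower, with 0.221% of all genes. With no fold threshold Grik2 joined Gria1 and Gria3, and 11.4% of all genes were called lower and 18.3% in either direction. By size, Gria1 ranked 2 and Gria3 ranked 213 among the 225 genes called lower. The median log2 difference was -0.14 over the 9 subunits, -0.07 over all genes and -0.04 over olfactory receptor genes. All 9 differences were below 0 as deposited, as were those of 13825 of all 19938 genes and 677 of 1027 olfactory receptor genes. Only 5 of the 9 differences were below 0 after quantile or cyclic loess normalization and 7 after median centring. Without LBC replicate 1, with the scaling as deposited, 5 were below 0 as well. The sign of the small differences thus depends on the scaling and on single arrays. Those of Gria1, Gria3, Gria4, Grik2 and Grik4 stayed below 0 under the 3 scalings.

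LBC replicate 3 was at the upper or lower end of the LBC values for every subunit. It gave the highest LBC value for Gria1, Gria3 and Grik2 and the lowest for each of the other 6 subunits. Over all transcript clusters this array had a 25th percentile of intensity of 52.0 and a 75th percentile of 541, against 56.9 and 469 on LBC replicate 1 and 56.7 and 489 on LBC replicate 2. The HBC arrays differed as well, with 25th and 75th percentiles of 48.4 and 499 on replicate 2 and 55.1 and 470 on replicate 3. HBC replicate 3 gave the highest HBC value for Gria1, Gria4 and Grik1 to Grik5. The part of these array differences in the subunit values was not tested. Without LBC replicate 3 the log2 difference was -1.65 for Gria1, -0.57 for Gria3 and -0.34 for Grik2.

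**Figure D2:**
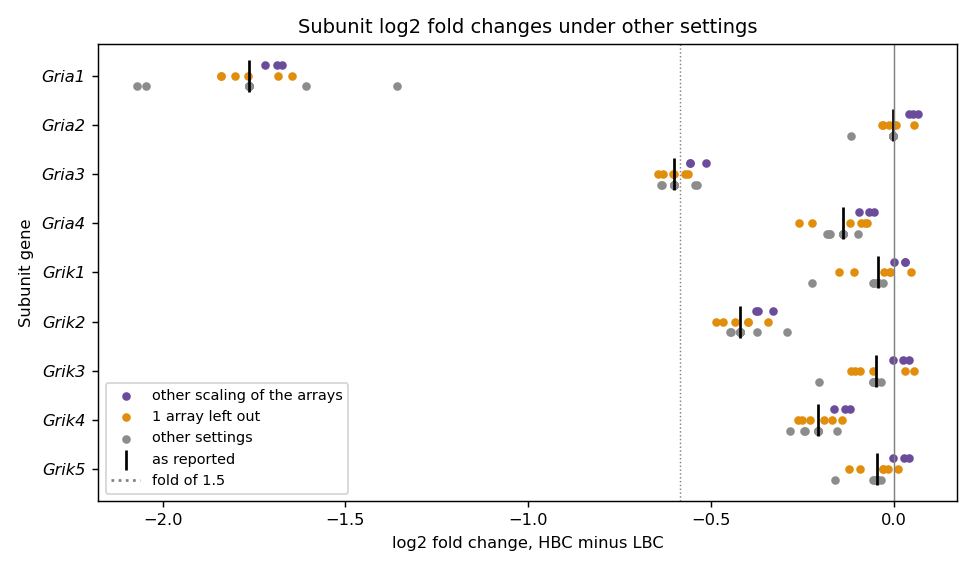
Log2 difference (HBC minus LBC) of each subunit as reported (black bar) and under other scalings of the arrays (purple), with 1 array left out (orange) and under other settings (grey), with a dotted line at a fold of 1.5. Gria1 ran from -2.07 to -1.36, Gria3 from -0.64 to -0.51 on both sides of the fold line, and Grik2 from -0.49 to -0.29 on the near side of it.

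Promoter sequences were in the RefSeq table (build GRCm38.p6, 250 bases before to 50 bases after the start) for 6 of the 9 genes, with 1 promoter each: Gria2, Gria4, Grik2, Grik3, Grik4 and Grik5. Their G and C content ran from 59.7% in Gria4 to 82.0% in Grik3, with 10 to 50 CpG dinucleotides in the window. Both sequences below are shown because they set Gria2, within the range of silent genes in HBC and LBC, beside Grik2, which was above it in both. The Gria2 promoter lies at chr3:80802786-80803085 and the Grik2 promoter at chr10:49788705-49789004, both on the minus strand, and capitals mark each CpG.
Gria2: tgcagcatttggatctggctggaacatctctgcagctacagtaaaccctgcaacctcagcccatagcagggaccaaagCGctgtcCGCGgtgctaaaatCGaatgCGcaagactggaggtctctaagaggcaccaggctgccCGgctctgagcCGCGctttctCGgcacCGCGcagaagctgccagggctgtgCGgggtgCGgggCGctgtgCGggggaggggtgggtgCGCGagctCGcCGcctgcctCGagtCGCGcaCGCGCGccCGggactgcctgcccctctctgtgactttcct
Grik2: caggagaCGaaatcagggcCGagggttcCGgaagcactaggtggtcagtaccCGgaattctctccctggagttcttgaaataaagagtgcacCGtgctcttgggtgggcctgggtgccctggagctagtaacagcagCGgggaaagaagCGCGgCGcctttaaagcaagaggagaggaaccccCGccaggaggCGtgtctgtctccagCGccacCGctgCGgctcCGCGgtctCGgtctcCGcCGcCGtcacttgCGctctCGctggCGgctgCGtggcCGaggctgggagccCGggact
The windows of Gria2 and Grik2 were alike in composition, with 65.7% and 64.7% G and C and 26 CpG dinucleotides in each. Whether composition goes with the level of a gene was not tested. The letters of the TATA box (TATAAA) were in none of the 6 windows on either strand, and in 13.6% of all 32851 promoters of the table. Those of the GC box (GGGCGG), bound by Sp1-type factors, were in 3 of the 6 windows (Grik3, Grik4 and Grik5) and in 35.7% of all. A match of letters is not a bound site, and its absence says only that these letters are not in the window.

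Proteins that work with the subunits were then compared. Of 15 auxiliary subunits of AMPA and kainate receptors measured, 1 was called lower in HBC, none was called higher and 14 were not called, with a median log2 difference of -0.09. The gene called was Neto2, which encodes an auxiliary subunit of kainate receptors and is known to bind GluK2. Neto2 read 447, 493 and 452 on the HBC arrays, against 933, 1027 and 1141 on the LBC arrays. The groups were well apart and both far above the silent genes. The log2 difference of Neto2 was -1.13 with a standard error of 0.090 (limma, adjusted p = 2.7e-11), at a ratio of 0.449, and it was -0.98 without LBC replicates 2 and 3. Its relative Neto1 read 50.7 in HBC and 60.1 in LBC, within the range of silent genes, and was not called.

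Transport of glutamate showed 1 further call. Slc17a6, the gene of the vesicular glutamate transporter VGLUT2 that fills synaptic vesicles, read 397, 400.5 and 384 in HBC and 702, 752 and 953 in LBC. Its HBC arrays were close together and below all LBC arrays. The log2 difference of Slc17a6 was -0.99 with a standard error of 0.096 (limma, adjusted p = 2.3e-09). It was 1 of 16 genes of glutamate transport and metabolism measured, of which 1 was called lower, none higher and 15 not called. The vesicular transporters Slc17a7 and Slc17a8 were not called, with log2 differences of -0.10 and 0.02.

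RNA editing changes the coding sequence of AMPA and kainate subunits, above all that of Gria2. Of the 3 adenosine deaminase genes, Adar was called higher in HBC, at 852, 959.9 and 743 on the HBC arrays and 315, 324 and 347 on the LBC arrays. Its log2 difference was 1.33 with a standard error of 0.092 (limma, adjusted p = 1.3e-12). Adar is induced by interferon. Adarb1, the deaminase known for editing Gria2, read 102.5 in HBC and 120.9 in LBC (log2 difference of -0.21, not called), and Adarb2 was not called (0.07). The arrays measure transcript levels, so editing itself was not measured.

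None of the remaining glutamate lists held a called gene. All 7 delta and NMDA receptor subunits measured were not called, with a median log2 difference of -0.17, and the brightest of them, Grin2c, had -0.17. The 7 metabotropic receptors measured had a median of -0.14, and their brightest, Grm2, had -0.18. The 23 genes of receptor assembly, trafficking and scaffolds had a median of -0.10. Camk2d, a calmodulin-dependent kinase and the brightest of the list, read 1357 in HBC and 1478 in LBC (log2 difference of -0.12). Over these 6 lists 71 genes were measured, of which 2 were called lower and 1 higher, while 3.67% of all genes were called in either direction.

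**Figure D3:**
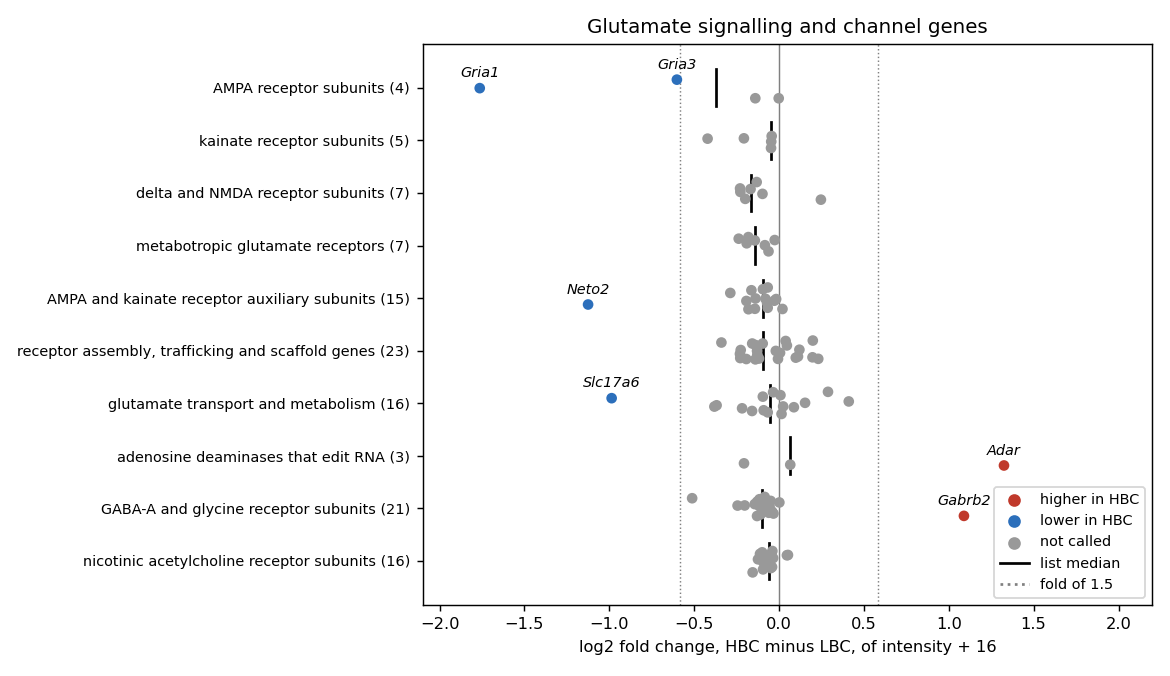
Log2 difference (HBC minus LBC) of each gene measured in the AMPA and kainate families and 8 other lists, with the number measured in parentheses, black bars at the list medians and dotted lines at a fold of 1.5. Blue genes were called lower and red ones higher in HBC; Gria1 (-1.76), Neto2 (-1.13) and Slc17a6 (-0.99) lie far from the other genes of their lists.

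Other neurotransmitter-gated channels served for comparison. Of 21 subunits of GABA-A and glycine receptors measured, Gabrb2 was called higher and 20 were not called. Gabrb2 read 112.9, 115.7 and 99.9 in HBC, above the silent genes, and 49.8, 48.4 and 32.2 in LBC, within their range. Its log2 difference was 1.09 with a standard error of 0.101 (limma, adjusted p = 7.7e-10), opposite in direction to Gria1. None of 16 nicotinic acetylcholine receptor subunits was called, and Chrna7, the brightest, had a log2 difference of -0.16. Whether the families differed from each other was not tested.

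Markers of cell types were read beside these values, since in bulk RNA fewer cells of a type and less RNA per cell cannot be told apart. Among 10 neuron markers, 1 was called lower in HBC and none higher, where 1.13% of all genes were called lower and 2.54% higher. Their summed intensity was 1171 to 1255 on the HBC arrays and 1456 to 1517 on the LBC arrays. A sum leans on the brighter genes, and the median log2 difference of the 10 was -0.14, against -0.07 over all genes. The gene called was Snap25, which encodes a protein of vesicle fusion, at 163, 169 and 174 in HBC and 294, 295 and 333 in LBC (log2 difference of -0.81, limma adjusted p = 1.4e-08). Of the 10, 5 were above the silent genes in HBC and 7 in LBC, where 13549 and 13717 of all 19938 genes were. In 7 of the 10 every HBC array was below every LBC array, which was so for 25.1% of all genes. Besides Snap25, the markers above the silent genes in both groups were Tubb3, Map2, Nefl and Rbfox3. Tubb3, a neuronal tubulin, read 201 in HBC and 267 in LBC (log2 difference of -0.39, limma adjusted p = 0.0010) and was not called, being under the fold of 1.5. The other 3 had log2 differences from -0.17 for Map2 to -0.03 for Nefl. Elavl3 and Syp were above the silent genes in LBC only, and Elavl4, Stmn2 and Syt1 were within their range in both groups. The part of other cells in the values of Gria1 was not tested. None of 6 glial, 6 macrophage or 5 endothelial markers was called. Their brightest genes, S100b, Cd68 and Tie1, had log2 differences of -0.04, -0.11 and -0.02. Summed intensity was lower in HBC for the macrophage markers, at 437 to 455 against 476 to 510 in LBC. Only 2 of these 6 were above the silent genes in each group, so much of this sum is dim signal. In 2 of the 6 every HBC array was below every LBC array, against 25.1% of all genes. For the mature adipocyte markers summed intensity was higher in HBC, and it overlapped for the glial, endothelial and stromal ones. Of 10 stromal markers, 9 were above the silent genes in both groups, and Lum was dim in both. Col1a2, the brightest, read 5492 in HBC and 4651 in LBC. Being above the silent genes does not by itself check the labelled cell type. Most genes tested and 5 of 6 glial markers were above them too, in both groups. Of these stromal markers, Col3a1 (0.80) and Eng (0.78) were called higher and Dcn (-0.78) lower. Of 5 mature adipocyte markers, none was called; the brightest was Fabp4 (0.42), and Adipoq read 43.0 in HBC and 40.7 in LBC.

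**Figure D4:**
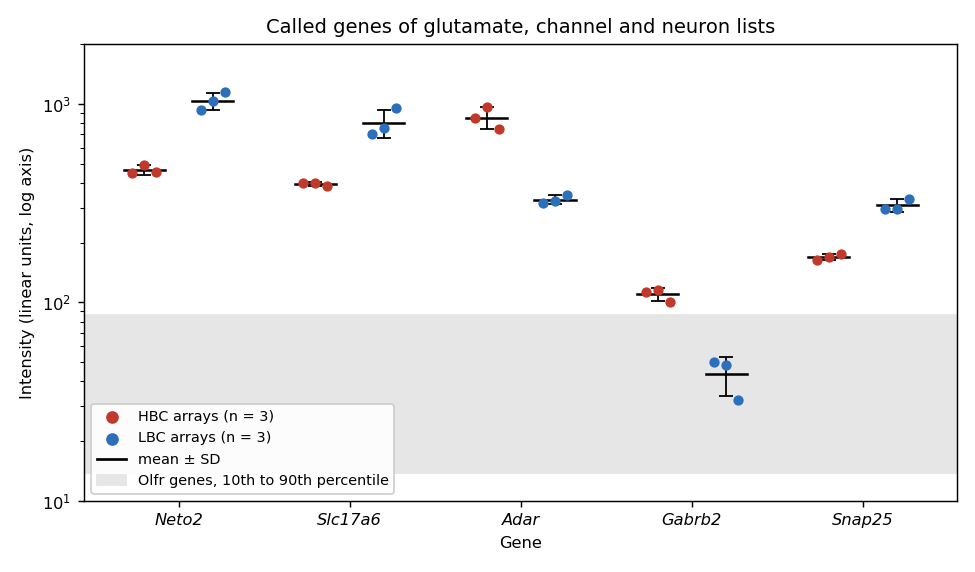
Intensity (linear units on a log axis) of the called genes of the glutamate and channel lists and the called neuron marker, with 3 HBC arrays in red left of 3 LBC arrays in blue, black lines for the mean and SD, and the range of olfactory receptor genes in grey. Neto2, Slc17a6 and Snap25 are lower and Adar and Gabrb2 higher in HBC, without overlap of the groups.

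On chromosome 11, where Gria1 spans 319 kb in GRCm38.p6, the 5 tested genes on each side of it were compared. Of these 10, Gm12238 was called lower, none was called higher and 9 were not called, with log2 differences from -0.62 to 0.42. Gm12238 lies 1529 kb away and had a log2 difference of -0.62 (limma, adjusted p = 5.2e-06), just past the fold. It was not called in 8 of 19 other settings, where the log2 difference reached -0.48. The nearest neighbour, Fam114a2, 152.7 kb away, had -0.17 and was not called. None of the 10 had a difference of the size of that of Gria1. On the other side, however, the nearest tested gene was 970.6 kb away. At 66.5 in HBC and 72.9 in LBC it lay within the range of silent genes, where a fall could hardly be seen.

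The genes whose pattern over the 6 arrays was most like that of Gria1 were found by the smallest Euclidean distance between log2(intensity + 16) values centred on each gene's mean. They were Itga3, an integrin subunit, at a distance of 0.229, Pate14 (0.317), Gpr149, an orphan receptor (0.324), Gdpd1 (0.334) and Npnt, an integrin ligand of the matrix (0.370). Their log2 differences ran from -1.75 for Npnt to -1.54 for Gdpd1. In HBC, Gdpd1 and Pate14 lay within the range of silent genes like Gria1, at the 57.8 and 89.0 percentile, while Npnt was well above it, at the 99.8 percentile. All 5 were brightest on LBC replicate 3, as was Gria1. The likeness rests on 6 arrays and mostly on the difference between HBC and LBC.

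**Figure D5:**
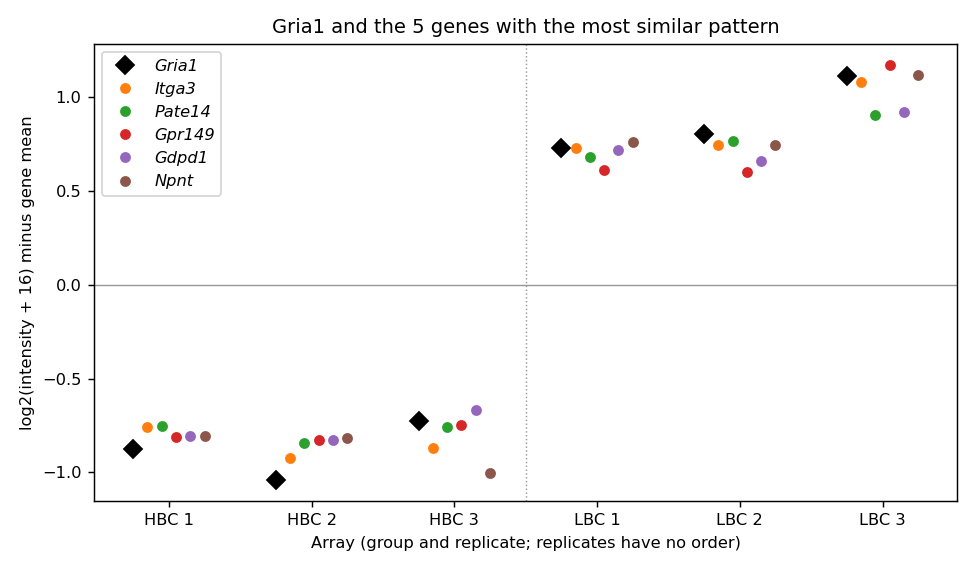
Log2(intensity + 16) minus the gene's mean on each of 6 arrays for Gria1 (black diamonds) and the 5 genes with the smallest distance to it (coloured points). All 6 genes are below 0 on the 3 HBC arrays and above 0 on the 3 LBC arrays, highest on LBC replicate 3.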

How the data were processed

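RNA of 3 HBC and 3 LBC replicates was measured on Affymetrix mouse gene arrays. The authors deposited linear intensities from Affymetrix Expression Console. How the arrays were normalized, and the software version, was not given in the sources here. The methods name a later gene array than the one whose annotation holds the transcript cluster IDs of the table, and symbols were taken from that annotation, which can be old; which array was used could not be settled. The annotation gave 1 symbol to 21789 of 35556 transcript clusters, several to 1621 and none to 12146; only the first were used. For the 999 genes with several clusters the one with the highest mean intensity was taken. HBC and LBC were compared on log2(intensity + 16) with limma 3.58.1 in R 4.3.3, with Benjamini-Hochberg adjustment over 19938 genes. The variance prior had 24.9 degrees of freedom against 4 residual ones, so the standard errors lean mostly on it, and very small adjusted p-values depend on it. The added 16 makes differences of dim genes smaller. The number of arrays limits the precision.

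The members and lists were chosen with earlier results of these data known. Named genes are the 9 subunits, up to 3 called genes per list or else its brightest, the 5 genes most like Gria1, called neighbours of Gria1, and called or brightest markers; genes named outside this rule (Neto1, Slc17a7, Slc17a8, Adarb1, Adarb2, the neuron markers besides Snap25, Lum, Adipoq, Fam114a2 and those under the other observations) were chosen after their values were seen. Of 118 genes on the 8 other lists, 108 had a cluster of their own. Alternatives covered the offset, scaling, filters, test, choice of cluster, fold, replicate block and each array left out; leaving out LBC replicates 2 and 3 together, and subunit and list counts at other folds, were chosen after seeing the data.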

Additional observations from a re-analysis of the deposited data

How the results depend on the processing

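Gria1 stayed lower in HBC in all 19 other settings in which it was tested, with a log2 difference of -2.05 after adding 1 in place of 16, -2.07 with a floor at 16, -1.36 after adding 50, and from -1.84 to -1.65 with 1 array left out. The number of subunits called was 1 in place of 2 after adding 50 (Gria1), after quantile, cyclic loess or median scaling (Gria1), with a mean above 100 in both groups (Gria3, since Gria1 was left out), and without LBC replicates 2 and 3 (Gria1), a setting chosen after seeing the data. It was also 1 (Gria1) at a fold above 2 and 3 with no fold threshold, which adds Grik2, and it was 1 to 2 with 1 array left out. Of all genes, 732 were called, 280 at a fold above 2 and 3655 with no fold threshold. The 4 calls on the other lists (Neto2, Slc17a6, Adar and Gabrb2) were kept at the fold of 1.5 in each setting in which the gene was tested, with highest adjusted p of 0.014, 0.035, 0.015 and 0.040. At a fold above 2, 3 of them were left, without Slc17a6, and with no fold threshold 14 genes of these lists passed. Arrays of HBC and LBC with the same number did not deviate together (correlations of -0.096, -0.24 and -0.50), so the numbers give no pairing, and the replicate block left 732 calls and Gria1 at -1.76. Dim signal limits the ratio of Gria1 and any statement on Gria2, Gria4, Grik1 and Grik5.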

Other observations

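With no fold threshold, 14 of the 108 genes on the 8 other lists passed the adjusted p under 0.05 (limma), or 13.0%, while 18.3% of all genes did, so the share on these lists was not above that of all genes. The following genes are given for their values alone. Slc25a22, a mitochondrial glutamate carrier, was higher in HBC, at 274 against 202 in LBC (log2 difference of 0.41, limma adjusted p = 0.00066). Glul, which makes glutamine from glutamate, was lower, at 651 in HBC and 855 in LBC (log2 difference of -0.38, limma adjusted p = 0.0021). The glutamine transporter Slc38a1 had a log2 difference of -0.37 (limma, adjusted p = 0.0023), and Dlg2, a synaptic scaffold, one of -0.34 (limma, adjusted p = 0.0037), both near the upper edge of the silent genes. Gabrb1, a GABA-A subunit, had -0.51 (limma, adjusted p = 6.4e-05) at 25.7 in HBC and 43.4 in LBC, within the range of silent genes in both groups, while Gabrb2 had 1.09.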
